A study of Mus musculus with 4 samples.

Results

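The proteasome genes described here are the protein-coding mouse genes whose symbols begin with Psma, Psmb, Psmc, Psmd, Psme, Psmf or Psmg, leaving out Psmb8, Psmb9 and Psmb10. The rule uses names only and took 47 of the 53465 genes in the files, of which 46 had enough reads to be tested. PolyA RNA of ventricles from mice at postnatal day 1 was sequenced in 4 libraries. The 2 control libraries carried Ctnnb1floxP/floxP without Cre (alphaMHC-Cre-), and the 2 libraries labelled as knockouts carried Ctnnb1floxP/floxP with alphaMHC-Cre+. All 4 therefore carried the floxed allele of Ctnnb1, the gene of β-catenin, and the groups differed both in the labelled deletion and in the presence of the Cre transgene. The alphaMHC promoter drives Cre in cardiomyocytes, so other cells of the ventricle keep the gene. The labels do not say whether the libraries came from separate animals, and p-values then measure only the spread between these samples.

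The proteasome is the protease that degrades ubiquitin-tagged proteins. Its barrel, the 20S core, stacks outer rings of alpha subunits (Psma genes) on inner rings of beta subunits (Psmb genes), among which Psmb5, Psmb6 and Psmb7 carry the cutting sites. The 19S cap adds a ring of ATPases (Psmc genes) that unfold the substrate and non-ATPase subunits (most Psmd genes) that bind and remove ubiquitin. Psmg genes and Psmd5, Psmd9 and Psmd10 encode chaperones that help to assemble these parts, Psme genes encode other caps that open the barrel, and Psmf1 encodes an inhibitor. In heart muscle the proteasome turns over contractile and signalling proteins.

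Read counts assigned to genes ranged from 34027143 to 45651797 per library. Ctnnb1 itself had 409 and 434 CPM (reads of a gene as a share of the library's total, scaled here by edgeR's TMM method) in the controls, and 527 and 460 in the other group, with a log2 fold change of 0.23 ± 0.20 (SE) and an edgeR adjusted p of 0.532. Counts over the whole gene do not check a deletion of some of its exons, so the labels were not checked by this gene and the libraries are called knockout-labelled throughout. Cardiomyocyte markers were present in all 4 libraries, and none of the 10 was at 0. Their summed levels were 50271 to 57827 CPM among controls and 61946 to 71116 among knockout-labelled libraries. In both knockout-labelled libraries 5 of the 10 lay above both controls and 0 below both, beside 26.5% and 29.7% of all genes tested. Myh7, Ryr2 and Tnni1 had negative log2 fold changes, of -1.16, -0.26 and -0.08, with overlapping groups. Those of the other markers were positive. Summed erythroid markers were at 1085 and 1118 CPM against 763 and 656, and 5 of those 6 genes lay below both controls. Of 6 macrophage markers 4 lay below both controls, with a list median of -0.62, among them Cd68 at 14.9 and 11.3 CPM against 4.74 and 4.97 and Csf1r at 36.1 and 31.9 against 21.7 and 19.8. Mrc1 lay above, at 18.3 and 17.6 against 27.8 and 41.9, and the list's sum of 114 and 93.7 against 78.3 and 95.2 overlapped. All 10 genes of a proliferation list lay higher in both knockout-labelled libraries, with a median log2 fold change of 1.15, among them Rrm2 at 12.0 and 16.3 CPM against 49.3 and 49.1, and Pcna at 37.4 and 36.5 against 75.2 and 71.7. Control 1 stood apart in 7 T cell and thymus markers, which summed to 228 CPM there against 4.25 in control 2 and 1.20 and 0.778 in the other group. Knockout-labelled library 2 stood apart in Xist, at 602 CPM against 0.180 to 0.327 in the other 3. In bulk tissue, fewer cells of a type and less RNA per cell cannot be told apart, and the part of these differences in the results on proteasome genes was not tested.

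Genes of the 20S core and the 19S cap lay higher in the knockout-labelled hearts, with median log2 fold changes of 0.61 in the alpha ring, 0.65 in the beta ring, 0.58 among the ATPases and 0.34 among the non-ATPases. Medians were 0.16 for the assembly chaperones and 0.05 for the activators. Over the 46 genes tested the median log2 fold change was 0.55, or 1.47-fold, beside a median of -0.02 over all 18157 genes tested and -0.03 over protein-coding genes. The values ran from -0.09 for Psmf1 to 1.12 for Psmd14, and 44 of the 46 were above 0. In 34 genes the knockout-labelled libraries both exceeded the controls, in 0 they both lay under them, and in 12 the groups overlapped. Over all genes tested, 26.5% had both knockout-labelled libraries above both controls (24.9% of protein-coding genes) and 29.7% had both below.

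**Figure D1:**
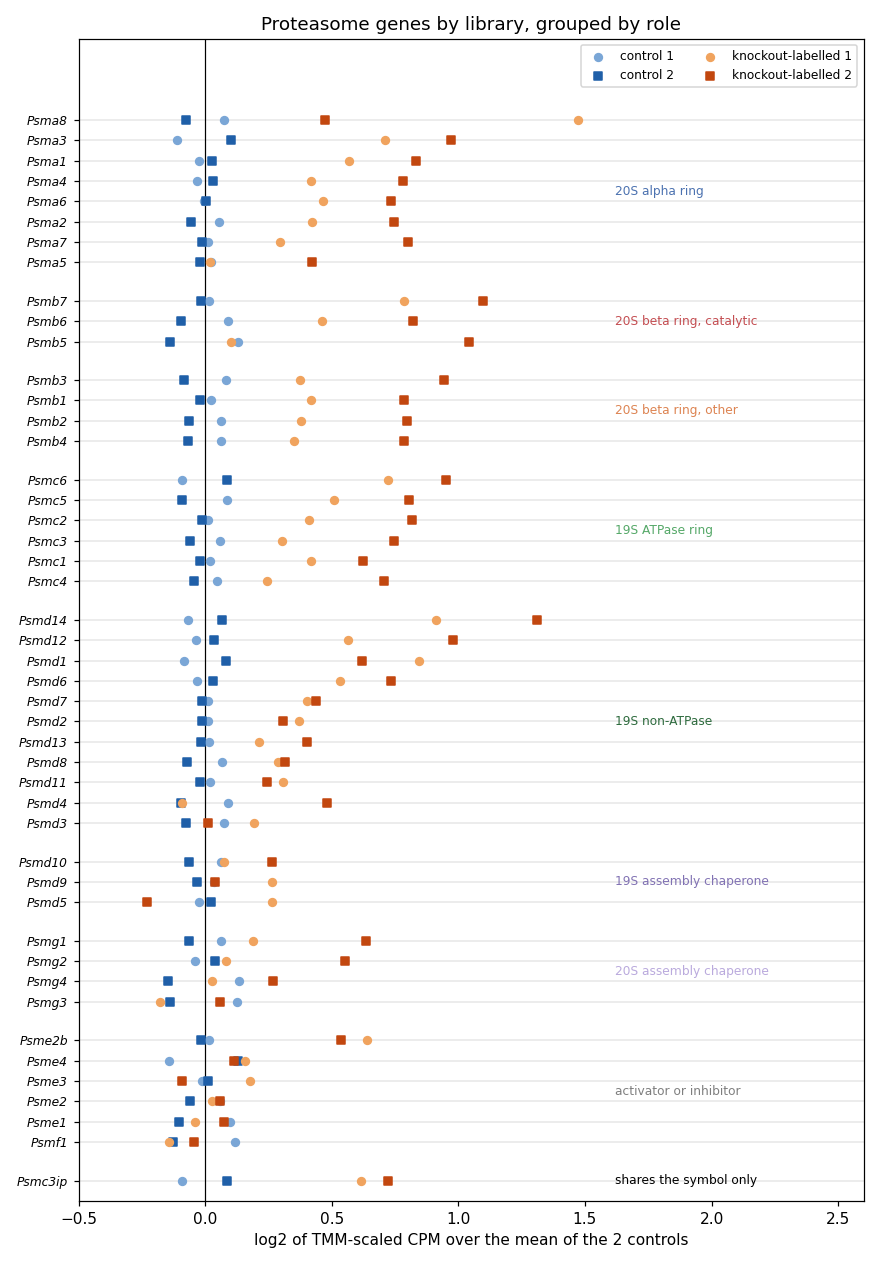
Level of each of the 46 tested genes in each library, as log2 of TMM-scaled CPM over the mean of the 2 controls (horizontal axis), with genes grouped by role (vertical axis) and 1 point per library. Points of the knockout-labelled libraries lie to the right of the controls across the 20S and 19S subunits, except for Psma5, Psmb5, Psmd3 and Psmd4, whose groups overlap. Among the activators they lie close to the controls. Knockout-labelled library 2 lies to the right of library 1 for 36 of the 46 genes.

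No single gene of the 46 passed the test over all genes. The quasi-likelihood test of edgeR, after Benjamini-Hochberg adjustment, called 0.011% of all genes tested (2 genes), and the adjusted p of the proteasome genes by edgeR ran from 0.0925 to 0.963. Before adjustment, 22 of the 46 were higher with p under 0.05 and 0 were lower. In the same fit 11.8% of all genes and 9.48% of protein-coding genes were higher, and 11.2% of all genes were lower. Such shares at an unadjusted p were not counted for other settings. The count of 22 was 6 with library totals as the only scaling, 2 without control 1 and 5 without control 2. DESeq2, run as an alternative, called 11 of the 47 higher and 0 of them lower after adjustment, beside 5.85% of all genes called higher and 4.65% called lower. The authors' deposited table calls 11 of these genes higher and 0 lower, and all 11 are also called by DESeq2 here, which starts from the same counts.

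The shift was present in both knockout-labelled libraries and larger in the second. The median over the 46 genes, as log2 over the control mean, was 0.02 and -0.02 in the controls, 0.36 in knockout-labelled library 1 and 0.63 in library 2. With TMM scaling and all 4 libraries, the 22 genes with an unadjusted p under 0.05 were all among the 32 tested genes of the 20S rings and the 19S cap without its chaperones, which had a median log2 fold change of 0.61 and 28 genes with groups apart. The remaining 14 genes had a median of 0.14, and 6 had groups apart. No test of the difference between these sets was made. With library totals as the only scaling, the median of the 46 genes was 0.30 and that of all genes -0.26, a gap of 0.56 as against 0.58 with TMM scaling.

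**Figure D2:**
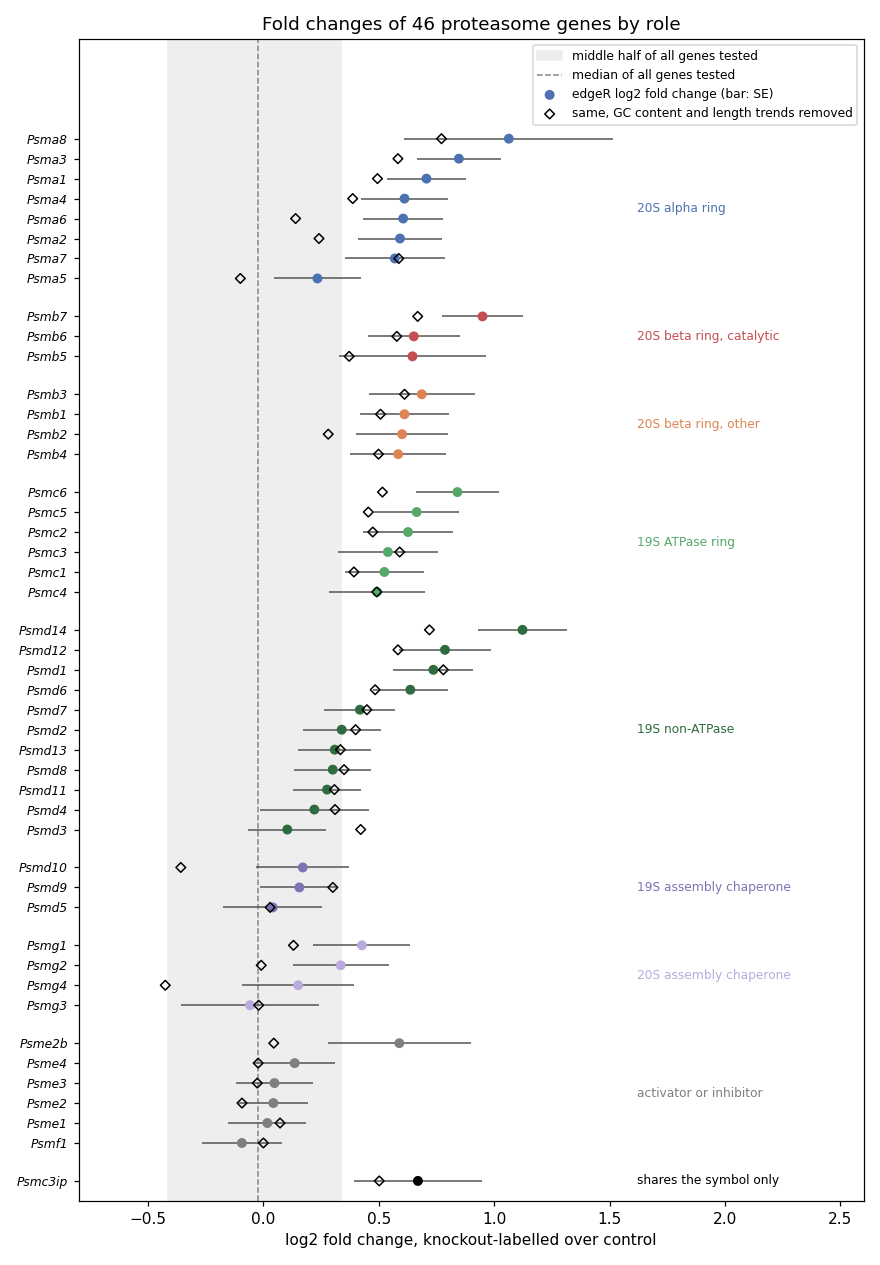
Log2 fold change of knockout-labelled over control libraries with its SE (filled points, horizontal axis) for 46 genes grouped by role, and the same after trends with GC content and gene length were removed (open diamonds). The band spans the middle of all genes tested, from the lower quartile at -0.41 to the upper quartile at 0.34, and most points of the 20S rings and the ATPase ring lie to its right.

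The alpha ring forms the gate of the 20S barrel. Of its 8 genes, 6 were higher at an unadjusted p under 0.05, and the groups were apart for 7, with a median log2 fold change of 0.61. Psma3 had 71.0 and 82.4 CPM in controls 1 and 2, then 126 and 150 in knockout-labelled libraries 1 and 2, the order kept below, with a log2 fold change of 0.85 ± 0.18. Psma1 was at 80.7 and 83.6 against 122 and 146 CPM (log2 fold change 0.71), and Psma6 at 90.7 and 91.3 against 126 and 151 (0.61). In these 3 genes the knockout-labelled libraries were both above the controls, and DESeq2 called each of them higher, with adjusted p of 0.00353, 0.0130 and 0.0391. Psma5 was the exception in the ring, with 68.8 and 66.8 CPM against 68.8 and 90.8, so that only knockout-labelled library 2 stood above the controls.

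The beta ring holds the active sites. Psmb7, with the trypsin-like site, was at 51.9 and 50.8 against 88.6 and 110 CPM, a log2 fold change of 0.95 ± 0.17 with an adjusted p of 0.0925 by edgeR and 8.14e-04 by DESeq2. Psmb6, with the caspase-like site, was at 131 and 115 against 170 and 218 CPM (0.65 ± 0.20), an adjusted p of 0.142 by edgeR and 0.0428 by DESeq2. Both genes had the groups apart. Psmb5, with the chymotrypsin-like site, was at 32.6 and 27.1 CPM against 32.0 and 61.5, so its groups overlapped. Its log2 fold change of 0.65 ± 0.32 became 0.11 without knockout-labelled library 2 and 1.10 without library 1. The 4 beta subunits without a cutting site were alike, with log2 fold changes of 0.58 to 0.69 and groups apart in all 4. Among them Psmb1 was at 124 and 120 CPM against 163 and 210, Psmb2 at 92.3 and 84.4 against 115 and 153, and Psmb3 at 87.3 and 77.8 against 107 and 159. Exons of Psmb7 share 405 bases with Nek6 on the opposite strand, and the strand setting of the counting is not given in the sources used here.

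The level of Psmb5 in knockout-labelled library 2 has to be read beside its processed pseudogene Gm3375, an intron-less copy of the transcript at chr7:3181093-3181888 (GRCm38, plus strand, GENCODE M21). The copy matches the Psmb5 transcript at 98.9% over 796 aligned bases, with 8 mismatches and 1 gap, so the transcripts differ at few positions. Gm3375 had 918, 878 and 1093 reads in controls 1 and 2 and knockout-labelled library 1, and 58 in library 2. The stretch of 120 bases below is shown because it holds 3 bases that differ between the gene and the copy, printed in capitals. For its length the stretch holds more differences than the whole alignment, with 8 mismatches in 796 bases. It covers coding bases 268 to 387 of Psmb5, whose gene lies at chr14:54614119-54618022 on the minus strand, and chr7:3181361-3181480 of the copy.
Psmb5: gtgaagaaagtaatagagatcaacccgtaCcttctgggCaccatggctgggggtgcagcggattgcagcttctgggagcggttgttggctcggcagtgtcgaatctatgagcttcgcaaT
Gm3375: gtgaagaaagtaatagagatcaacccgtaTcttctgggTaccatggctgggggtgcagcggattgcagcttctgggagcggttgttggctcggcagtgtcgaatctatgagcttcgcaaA

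Added together, Psmb5 and Gm3375 had 52.3 and 45.0 against 56.6 and 63.4 CPM. The copy's share of the joint reads was 37.7%, 39.9%, 43.5% and 3.09% in the same order. The summed level was apart between the groups, with a log2 ratio of the group means of 0.30, where Psmb5 alone gave 0.65. Psmd2 and its copy Gm5422 (96.9% identity) showed the same library at the low end, with 632, 555, 465 and 115 reads of the copy, but there the copy made up 6.72%, 5.77%, 4.16% and 1.65% of the joint reads and the log2 ratio was 0.29 summed and 0.34 alone. In all, 9 such copies of 6 genes were found at 95% identity or more. Whether the reads came from the copy or from the parent gene was not tested.

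**Figure D3:**
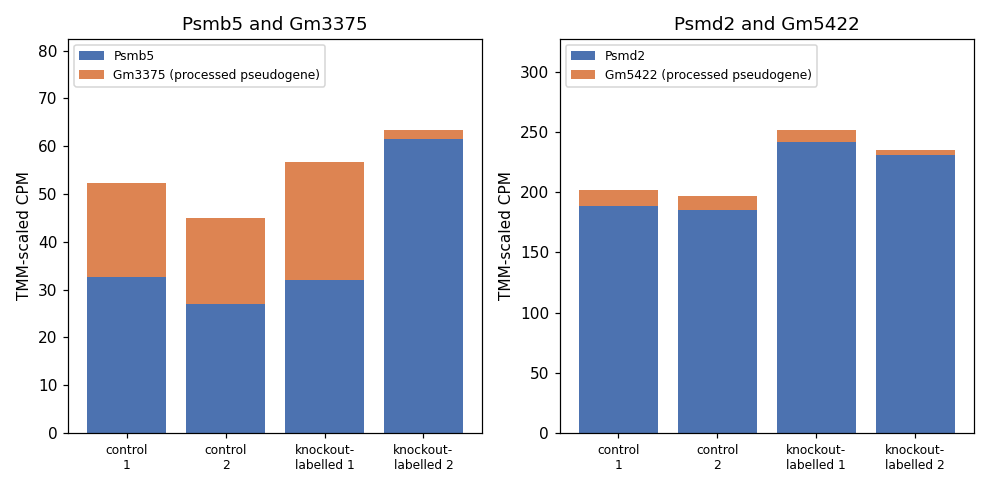
TMM-scaled CPM (vertical axis) of Psmb5 with its processed pseudogene Gm3375, and of Psmd2 with Gm5422, in each of the 4 libraries (horizontal axis), stacked so that the bar's height is the joint level. Gm3375 takes 37.7% to 43.5% of the joint Psmb5 reads in the first 3 libraries and 3.09% in knockout-labelled library 2, while the joint level varies less than Psmb5 alone.

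The 6 ATPases of the 19S cap, which unfold substrates and open the gate, all had the groups apart, and 5 were higher at an unadjusted p under 0.05. Their log2 fold changes lay between 0.49 and 0.84, with a median of 0.58. Psmc6 was at 84.4 and 95.3 CPM against 148 and 174 (0.84 ± 0.18), Psmc5 at 82.2 and 72.6 against 110 and 135 (0.66 ± 0.18), and Psmc2 at 94.7 and 93.3 against 125 and 165 (0.63 ± 0.19). DESeq2 called Psmc6 and Psmc5 higher, with adjusted p of 0.00249 and 0.0309. Psmc3 shares 215 exon bases with Slc39a13 on the opposite strand.

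The 11 non-ATPase subunits spread more widely, from 0.10 to 1.12, with a median of 0.34. Psmd14, the deubiquitinase that cuts ubiquitin chains from the substrate, was at 33.5 and 36.9 CPM against 66.1 and 87.3 (1.12 ± 0.19). The adjusted p was 0.0925 by edgeR and 2.54e-04 by DESeq2. With TMM scaling, all 4 libraries and no trends removed, its log2 fold change was the highest of all 46 genes. After trends with GC content and length were removed it was 0.72, below 0.78 for Psmd1 and 0.77 for Psma8. Psmd12, a subunit of the lid, was at 82.1 and 86.3 against 125 and 166 CPM (0.79 ± 0.20). Psmd1, a scaffold of the base, was at 71.8 and 80.6 against 137 and 117 CPM (0.74 ± 0.17), and unlike most of the genes it was higher in knockout-labelled library 1 than in library 2. All 3 had the groups apart. At the other end, the ubiquitin receptor Psmd4 was at 139 and 122 CPM against 122 and 182, and Psmd3 at 123 and 111 against 134 and 118, so both overlapped. Psmd2, another scaffold of the base, was at 188 and 185 against 241 and 231 CPM (0.34 ± 0.17).

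By their median, the chaperones that build these rings lay closer to the control level. Their median log2 fold change was 0.16. In 4 of these 7 chaperones the knockout-labelled libraries both exceeded the controls, in 0 they both lay under them, and in 3 the groups overlapped. Over all genes tested, 26.5% had both above and 29.7% had both below. Of the 7, 0 had an unadjusted p under 0.05 in either direction. With 11.8% of all genes higher and 11.2% lower, a count of 0 among so few genes says little. The median turned to -0.08 with library totals only and to -0.01 after trends with GC content and length were removed. Psmd10 was at 16.0 and 14.7 CPM against 16.2 and 18.5, Psmd5 at 26.7 and 27.7 against 32.7 and 23.2, and Psmd9 at 31.2 and 29.8 against 36.7 and 31.4. Among the chaperones of the alpha ring, Psmg1 was at 23.0 and 21.1 CPM against 25.2 and 34.2 (0.43 ± 0.21, edgeR adjusted p = 0.279) and Psmg2 at 25.5 and 27.0 against 27.8 and 38.5 (0.34). Psmg4 was at 11.7 and 9.65 against 10.9 and 12.9 CPM and overlapped.

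The activators had the lowest median among the roles. Psme1 and Psme2 encode the cap that is induced by interferon, Psme3 its nuclear relative and Psme4 a large single-chain cap. Their 4 log2 fold changes lay between 0.02 and 0.14, all with overlapping groups, and their median of 0.05 turned to -0.19 with library totals only and to -0.02 after the GC and length trends were removed. Psme4 was at 108 and 130 CPM against 133 and 128. Psmf1, the inhibitor, was at 34.2 and 28.9 CPM against 28.5 and 30.6 (-0.09 ± 0.17). Psme2b, at 2.40 and 2.35 against 3.70 and 3.45 CPM (0.59 ± 0.31), is 99.4% identical to Psme2 over 794 bases, and its few reads are uncertain for that reason.

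Ratios within a library do not depend on how libraries are scaled to each other. The median level per transcript length (RPKM) of the 14 genes of the standard 20S core, divided by that of Psme1 to Psme4, was 1.81 and 1.94 for controls against 2.48 and 3.21. For the 17 subunits of the 19S cap with Psmc and Psmd symbols the same ratio was 1.43 and 1.38 against 1.81 and 2.16. The ratio of 20S to 19S medians was 1.27 and 1.41 against 1.37 and 1.49, and overlapped between the groups. The core stood higher against the caps Psme1 to Psme4 in both knockout-labelled libraries, and no such separation was seen between core and 19S cap.

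**Figure D4:**
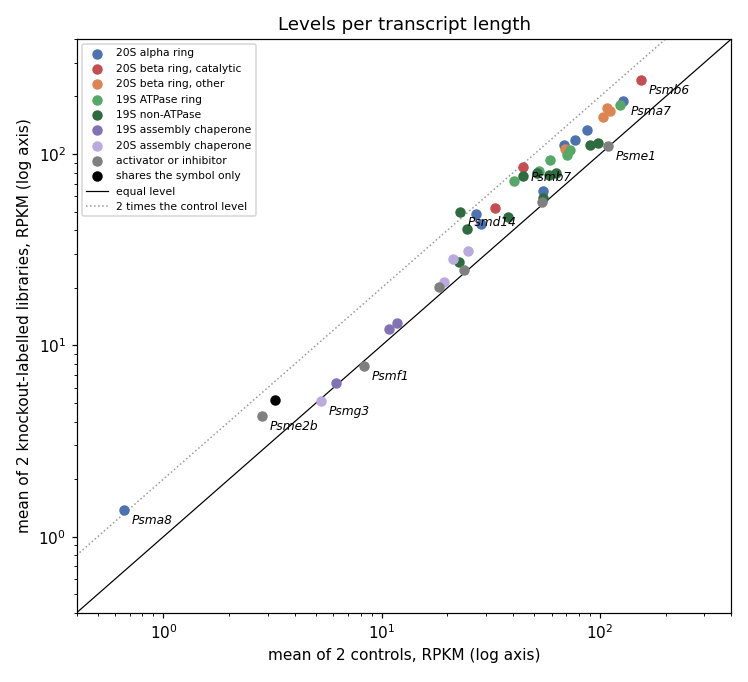
Mean level per transcript length (RPKM, both axes logarithmic) of 46 genes in the 2 control libraries (horizontal) and the 2 knockout-labelled libraries (vertical), coloured by role. Psmb6 is the highest, at 155 and 243 RPKM, and apart from Psmd14 and Psma8 the 20S and 19S subunits lie between the line of equal level and the dotted line of 2 times the control level, while Psme1, at 109 and 110, lies on the line of equal level.

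Levels per length differed widely between subunits that are present in equal numbers in the particle. They depend on the transcript length used for each gene. Psma3 and Psma1 had control means of 76.7 and 82.2 CPM but 26.9 and 68.4 RPKM, with lengths of 2846 and 1201 bases. Among control means, Psmb6 was highest at 155 RPKM, followed by Psma7 at 128 and Psmc3 at 124, and Psmd11 was lowest of the standard subunits at 22.5. Psmb6 stayed the highest in the knockout-labelled libraries, at 243. The chaperones were lower, from 5.30 to 24.8 RPKM in the controls.

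Promoter sequences were available for 39 of the 47 genes in RefSeq (GRCm38.p6), as windows from 250 bases before to 50 after a gene's start, 42 windows in all. Motifs were searched on both strands. Shares of the 39 genes are per gene, and the shares set beside them are per window. The core of ETS factor sites, CGGAAG, was found in windows of 23 of the 39 genes (58.97%) and in 24 of the 42 windows. It was in 16.9% of all 32851 windows and 21.7% of those of protein-coding genes. It was found for 17 of 25 core and cap genes and for 6 of the other 14. CCAAT was found for 14 genes (35.9% against 37.4% of all windows) and the antioxidant response element core TGACNNNGC for 6 (15.4% against 12.4%). In windows of protein-coding genes these 2 motifs were found in 37.8% and 13.1%. A nuclear respiratory factor 1 site was searched as CGCNTGCGC with a further G before it and found for 7 genes (17.9%), in 7 of the 42 windows. It was in 4.60% of all windows and 6.61% of those of protein-coding genes. The 9 letters without that G, added after the first values were seen, were found for the same number of genes. They were in 6.25% of all windows and 8.91% of those of protein-coding genes. Apart from these 2 forms, no motif's letters contain another's. These are matches of letters and no measure of binding.

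The 150 bases before the start are printed for the 4 genes with the highest log2 fold changes and the 2 with the lowest among those with a single window free of other exons, because they let the reader set the shifted and the flat genes side by side. Capitals mark motif matches on either strand. Psmd14 lies at chr2:61711544-61711693 (plus strand), Psma3 at chr12:70974471-70974620 (plus), Psmc6 at chr14:45329638-45329787 (plus), Psmd12 at chr11:107479334-107479483 (plus), Psme3 at chr11:101316063-101316212 (plus) and Psmg3 at chr5:139826895-139827044 (minus).
Psmd14: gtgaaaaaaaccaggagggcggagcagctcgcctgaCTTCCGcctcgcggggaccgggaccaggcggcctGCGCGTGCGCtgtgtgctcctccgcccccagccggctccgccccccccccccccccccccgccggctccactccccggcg
Psma3: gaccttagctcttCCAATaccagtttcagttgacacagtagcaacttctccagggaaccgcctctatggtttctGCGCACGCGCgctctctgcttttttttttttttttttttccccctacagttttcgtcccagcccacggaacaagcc
Psmc6: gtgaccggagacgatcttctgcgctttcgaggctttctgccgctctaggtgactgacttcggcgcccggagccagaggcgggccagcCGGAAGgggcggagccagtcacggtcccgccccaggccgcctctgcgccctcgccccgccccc
Psmd12: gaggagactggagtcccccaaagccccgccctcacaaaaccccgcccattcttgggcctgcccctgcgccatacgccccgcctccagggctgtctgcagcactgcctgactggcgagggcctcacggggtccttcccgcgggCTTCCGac
Psme3: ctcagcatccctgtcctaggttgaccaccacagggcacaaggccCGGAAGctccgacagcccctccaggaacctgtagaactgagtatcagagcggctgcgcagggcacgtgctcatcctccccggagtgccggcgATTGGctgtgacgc
Psmg3: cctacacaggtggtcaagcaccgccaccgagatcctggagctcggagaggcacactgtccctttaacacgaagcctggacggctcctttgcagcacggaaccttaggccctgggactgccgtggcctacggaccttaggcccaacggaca

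The printed stretches of Psmd14, Psmc6 and Psmd12 hold an ETS core, and so does that of Psme3, whose log2 fold change was 0.05. Psmg3, at 5.10 and 4.25 CPM against 4.13 and 4.87, holds none of the motifs in this stretch, but its full window of 300 bases holds an ETS core and it is among the 23 genes counted. Among the 38 tested genes with a window, the median log2 fold change was 0.55 for the 22 with an ETS core and 0.40 for the 16 without. It was 0.61 for the 13 with CCAAT and 0.34 for the 25 without. For the antioxidant response element core it was 0.65 for 6 genes with it and 0.51 for 32 without. With the nuclear respiratory factor 1 site it was 0.61 for 7 genes, and 0.34 for 31 without. These medians are given as a description.

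GC content moved with the fold changes. Across the 46 genes, which share the same 4 libraries, Pearson's r between GC content and log2 fold change was -0.40 (Spearman's rho -0.39), and across all genes it was -0.20. After trends with GC content and length were removed over all genes, the median of the 46 was 0.39 as against -0.02 for all genes. At an unadjusted p under 0.05, 25 of the 46 were higher in that fit, for which the share over all genes was not counted. The medians were then 0.50 for the standard 20S core, 0.48 for the ATPases and 0.42 for the non-ATPases. Within the core they were 0.39 for the alpha ring without Psma8 and 0.51 for the beta ring. Single genes moved unequally: Psma6 went from 0.61 to 0.14, Psmd14 from 1.12 to 0.72 and Psmd1 from 0.74 to 0.78.

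**Figure D5:**
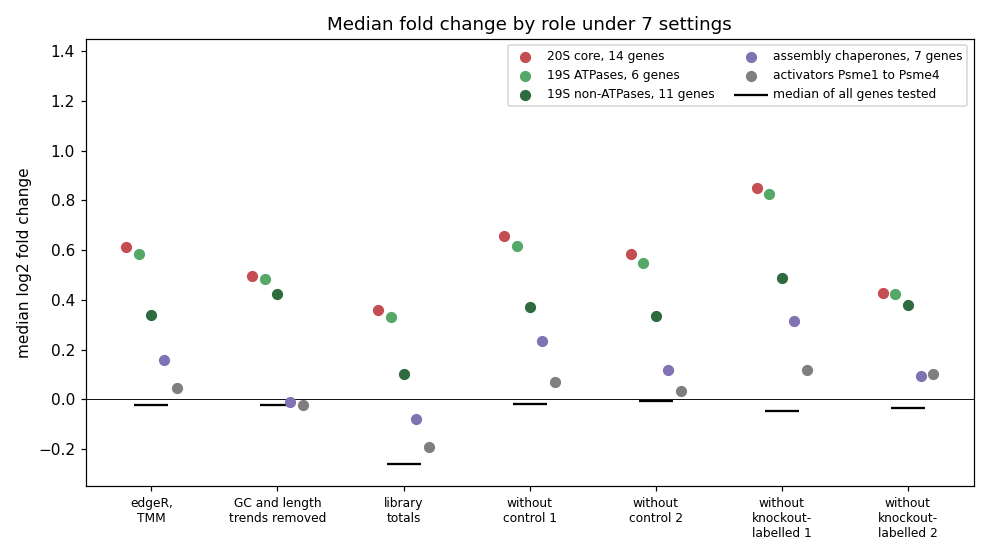
Median log2 fold change (vertical axis) of 5 sets of genes under 7 settings (horizontal axis), with the median of all genes tested as a black bar. The 20S core and the ATPases lie above the assembly chaperones and the activators in each of the 7 settings, and lie highest without knockout-labelled library 1, at 0.85 and 0.83, and at 0.43 and 0.42 without library 2.

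Of the genes outside the standard particle, the testis alpha subunit Psma8 was low, at 1.179 and 1.06 CPM against 3.11 and 1.56 (1.06 ± 0.45), from 55 and 52 reads against 138 and 46. Its groups were apart, and its log2 fold change was 0.52 without knockout-labelled library 1 and 1.48 without library 2. Psmb11, the beta subunit of the thymus cortex, had 192 reads in control 1 and 0, 1 and 0 in the other 3 libraries, and was not tested. In control 1 the recombination gene Rag1, a thymocyte marker, was at 67.7 CPM against 0.135 to 0.797 in the others. Psmc3ip shares only its symbol with the ATPases and acts in meiotic recombination. It was at 3.92 and 4.43 CPM against 6.41 and 6.90, and shares 385 exon bases with Mlx on the opposite strand.

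Genes around the proteasome were read from lists chosen with earlier results of these data known. Of 12 tested partners and subunits outside the symbol rule, 3 were higher and 0 were lower before adjustment (p under 0.05, as for the lists below). Their median was 0.33. Among the 12 are Adrm1 and Sem1, cap subunits with other symbols, at log2 fold changes of 0.12 ± 0.15 and 0.33 ± 0.21. For each list the shares to read these counts against are the 11.8% of all genes higher and the 11.2% lower. Usp14, a deubiquitinase of the cap, was at 27.3 and 38.3 CPM against 62.0 and 69.0 (1.00 ± 0.21), and Txnl1, a thioredoxin-like protein bound to the cap, at 57.9 and 61.6 against 88.7 and 107 (0.71 ± 0.17). Of 11 tested regulators of proteasome genes, 0 were higher and 2 lower, with a median of -0.02. A count of 2 is near the share of all genes that were lower. The 2 were Foxo4, at 102 and 91.9 CPM against 52.9 and 44.5 (-0.995 ± 0.17), and Ddi2, the protease that activates Nfe2l1, at 75.5 and 74.5 against 59.01 and 54.7 (-0.40 ± 0.15). Nfe2l1, the factor that drives proteasome genes when the proteasome is impaired, was at 340 and 297 CPM against 313 and 274, and overlapped. It is named outside the rule, after its values were seen.

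Uba3, a subunit of the NEDD8 E1 enzyme, was at 58.2 and 71.3 CPM against 108 and 108 (0.74 ± 0.17). Of 10 shuttle and p97 genes 0 were higher or lower, with Rad23b at 100 and 112 CPM against 161 and 126 and Ubqln1 at 74.97 and 72.8 against 96.8 and 87.4. Of 13 ubiquitin ligases of striated muscle, 2 were higher and 1 lower, both near the shares over all genes, with the atrophy ligase Fbxo32 at 109 and 90.6 CPM against 58.0 and 61.3 (-0.75 ± 0.17) and Fbxl22 at 90.9 and 135 against 175 and 248 (0.90 ± 0.27). The interferon-induced subunits Psmb8 and Psmb9, which replace standard beta subunits, lay lower in both knockout-labelled libraries and were called lower by DESeq2, with Psmb8 at 12.2 and 4.37 CPM against 1.40 and 1.15 and Psmb9 at 6.37 and 2.003 against 0.812 and 0.812. Without control 1, the library with thymus markers, the log2 fold change of Psmb8 went from -2.70 to -1.77 and that of Psmb9 from -2.36 to -1.30. The remaining one, Psmb10, was at 52.1 and 41.4 CPM against 51.2 and 69.3 (0.37 ± 0.21), with overlapping groups.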

How the data were processed

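PolyA RNA from ventricles was made into stranded libraries, per the labels' protocols. Reads were handled with bcl2fastq 2.16.0.10, FastQC 0.11.5, STAR 2.5.3a, HTSeq 0.6.1 and DESeq2 1.18 on GRCm38, per the submitters' processing notes, and the strand setting of the counting is not given in the sources used here. The deposited values are whole-number counts per gene. The authors' deposited table also holds log2 fold changes, p-values and adjusted p-values, used only for a count of shared calls, and 8 per-sample columns of it were not used.

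Of 53465 genes, 53360 were matched to GENCODE M21 for symbols and types. The 5 HTSeq summary categories were left out of library sizes. Genes kept by filterByExpr (18157) were tested in R 4.3.3 with edgeR 4.0.16 (TMM factors 1.08, 1.10, 0.972 and 0.869, quasi-likelihood test, group only, Benjamini-Hochberg over all genes tested, threshold 0.05). Alternatives used DESeq2 1.42.0, limma 3.58.1, other scalings, no filter, and trends with GC content and exon length removed with mgcv 1.9.3. RPKM is TMM-scaled CPM per length of 1 principal transcript. Copies were found with BLAST 2.17.0 at 95% identity over at least 50% of the copy. The fits were tested on simulated data.

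The members and gene lists were chosen with earlier results of these data known. Named with all values are Psmb5, Psmb6 and Psmb7, the 3 genes of each role with the smallest edgeR p, the genes with the highest and lowest fold change, those under the filter, and the 2 genes of each pathway list with the smallest p; others were named after their values were seen. The result of 1 list gene is not reported here. The promoter motifs were chosen after the fold changes were known. The nuclear respiratory factor 1 site was first searched with 10 letters and then also with 9. With 2 libraries per group, precision is limited by the spread between libraries. A count of 0 allows up to 0.0657 to 0.0882 CPM before TMM scaling (3 reads of the library total, counting error only).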

Additional observations from a re-analysis of the deposited data

Results flagged for a closer look

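Reads that aligned at several places were 23.9% and 29.7% of the total in knockout-labelled libraries 1 and 2, above the 19.4% and 20.98% of the controls; these reads enter no gene's count. The processed pseudogene Gm13835 (chr6:31141979-31142663, GRCm38), 100% identical to the Psma3 transcript over 665 bases, had 7.22 and 8.89 CPM there, against 1.52 and 2.29 for the controls. Psma3 itself was at 71.0 and 82.4 against 126 and 150 CPM.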

How the results depend on the processing

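The count of genes called over all genes, 2 by edgeR, was 1731 with DESeq2, 0 with limma-voom, 554 with no filter on low counts, 18 with the replicate block, 5 with the block and GC content and length trends removed, and 0 to 30 with 1 library left out. Called proteasome genes numbered 11 with DESeq2 and 2 with no filter. Genes higher at an unadjusted p under 0.05 numbered 6 with library totals only and ranged from 2 to 30 with 1 library left out (2 without control 1, 5 without control 2); 1 was lower with no filter, and 0 to 1 with 1 library left out. With no filter and without control 2, Psmb11 was tested as well. It had 192 reads in control 1 and 0, 1 and 0 in the others, and a log2 fold change of -7.96 without control 2. The median log2 fold change of the proteasome genes was 0.30 with library totals, 0.39 with GC and length trends removed and 0.39 with the block as well. It was 0.36 to 0.68 with 1 library left out, lowest without knockout-labelled library 2. Genes with both knockout-labelled libraries below both controls numbered 5 with library totals and 3 with GC and length trends removed. Those with both above numbered 27 and 30 in the same order. Shares over all genes were not counted for these settings, so the counts cannot be set against a background. Of the 46 tested genes, the direction turned in 11 with library totals, in 8 with GC and length trends removed, and in 2, 2, 4 and 2 without control 1, control 2, knockout-labelled library 1 and library 2. Among the genes chosen to be named, it turned with library totals for Psmd10 (-0.0743), Psmd5 (-0.19), Psmd9 (-0.0781), Psme4 (-0.10) and Psmg4 (-0.0949); with GC and length trends removed for Psmd10 (-0.36), Psme4 (-0.0223), Psmf1 (0.000356), Psmg2 (-0.0089) and Psmg4 (-0.42), and with the replicate block as well -0.35, -0.0232, 0.0027, -0.0135 and -0.42; without knockout-labelled library 1 for Psmd5 (-0.18) and Psmf1 (0.01), and without control 1 for Psmf1 (0.0343). With 1 library left out Psmd5 ranged from -0.18 to 0.275 and Psmf1 from -0.202 to 0.0343. Among the other genes it turned with library totals for Psmd3 (-0.13), Psmd4 (-0.0347), Psma5 (-0.017), Psme1 (-0.23), Psme2 (-0.20) and Psme3 (-0.19); with GC and length trends removed for Psma5 (-0.0994), Psme2 (-0.0924) and Psme3 (-0.0261); without control 1 for Psmg3 (0.0798); without control 2 for Psme1 (-0.0711) and Psme2 (-0.0058); without knockout-labelled library 1 for Psmg3 (0.11) and Psme3 (-0.0392); and without library 2 for Psmd4 (-0.0827) and Psme1 (-0.0311). The cause was not tested. Of 325 values of 25 named genes, 290 kept direction and side of the threshold, 17 passed it and 18 turned. Replicate numbers do not pair libraries in the labels: deviations of same-numbered libraries correlated at -0.12 over 18157 genes, and no proteasome gene passed with the replicate block (0). A crossed block, chosen after seeing the data, called 941 genes and 5 proteasome genes.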
